A study of Drosophila melanogaster with 10 samples.

Results

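The linker histone H1 was targeted by RNA interference in Kc cells, a Drosophila line of embryonic origin with properties of haemocytes, the blood cells of the fly. Of the 10 Affymetrix expression arrays of the series, 4 belong to this comparison, chosen by their titles. Of these, 2 arrays (a and b) came from Kc cells given dsRNA against H1 and 2 (a and b) from Kc cells given dsRNA against GFP, a jellyfish protein that fly cells do not make. Both groups grew at 25 °C in insect medium with 10% serum, took up dsRNA during 1 hour without serum on days 0, 2 and 4, and gave total RNA on day 6, per the labels, although the series record mentions a single treatment. Kc is 1 established line, so both groups share its genotype. The other 6 arrays are salivary glands of flies in which the driver Tub-Gal4, active in most tissues, expressed RNAi against H1 (3 arrays) or against Nautilus (nau, 3 arrays), and they enter only where stated. Nothing in the labels says that arrays a and b were grown apart, so the spread between the 2 arrays of a group may be technical. Each p-value rests on that spread, moderated by the spread over all probe sets, and the number of arrays limits the precision.

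Linker histone H1 binds the DNA where it enters and leaves the nucleosome and helps to fold chromatin. In Drosophila it is a major component of chromatin and is known for its part in heterochromatin, in polytene chromosome structure and in the silencing of some genes. A cell that takes up long dsRNA cuts it into short RNAs, which direct the cleavage of the matching transcript.

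Values are log2 of the deposited array intensity. No probe set used here carries the name of a His1 gene, so the depletion of H1 was not measured. The H1 arrays correlated with each other at r = 0.998, as did the GFP arrays, while r lay between 0.992 and 0.993 across the groups. Probe sets that match no fly transcript, the 17 Tag controls, had a 95th percentile of 3.27 and a highest value of 3.43, and levels at or under these are called background. The 18S rRNA control probe set stood at 5.78 and 5.02 in the H1 arrays, against 7.04 and 9.04 in the GFP arrays. The probe sets for Bacillus control transcripts averaged 3.97 and 3.83 in the H1 arrays, against 4.56 and 5.44 in the GFP arrays. Both controls were thus lower in each H1 array, and their part in the results was not tested.

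The cells carried transcripts of haemocytes. Hml, which encodes the clotting protein hemolectin, had log2 levels of 12.43 and 12.45 in the H1 arrays, against 12.21 and 12.25 in the GFP arrays, and Pvr, the receptor of the PDGF and VEGF-like factors, stayed between 11.84 and 11.91 in all 4. Of 16 haemocyte markers, 2 (Sr-CI and lz) lay at or under the highest Tag value in every array. The log2 of the summed intensity of the 16 was 14.04 and 14.06 with H1 RNAi, against 13.99 and 13.98 with GFP RNAi. Glue genes of the salivary gland were near background, with Sgs3 between 3.07 and 3.44, whereas the germline gene aub lay between 10.48 and 10.55. Since each array averages many cells, fewer cells that carry a transcript and less RNA per cell cannot be told apart.

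After H1 RNAi, changes of at least 2-fold were mostly increases, while small changes went both ways. A linear model of the 4 arrays (limma, Benjamini-Hochberg over 18769 probe sets, adjusted p under 0.05) called 2152 probe sets, 11.5% of those tested, with 1275 higher and 877 lower. At an unadjusted p under 0.05 there were 4859. Among 11982 named genes, each represented by its brightest probe set, 936 (7.81%) were higher and 703 (5.87%) were lower. All H1 values lay on one side of all GFP values for 59.4% of the named genes, so separation alone says little about a gene. The median difference, H1 minus GFP, was 0.66 among the genes that rose and -0.46 among those that fell, beside -0.03 over all named genes. At least 2-fold changes were found for 235 genes higher and 32 lower, and at least 4-fold changes for 33 and 5. The excess of increases among all called genes depended on the setting, with 885 higher and 909 lower after median centring, 1224 and 1457 with a pseudocount of 16, and 1328 and 1538 with a trended robust prior. When each array was left out in turn, 543 of the 936 increases and 200 of the 703 decreases were called in all 4 refits. Of those, 374 increases and 121 decreases were also called when all 10 arrays shared 1 fit, whose spread includes the glands. The count of genes lower became 411 without H1 array a, 259 without H1 array b, 416 without GFP array a and 267 without GFP array b, and that of genes higher became 610 without H1 array b. Of the larger changes, 232 of the 235 and 32 of the 32 genes at 2-fold or more were called in every such refit. Probe sets with no gene symbol held 193 increases and 90 decreases, and 6.00% of them were called, against 13.3% of those with 1 symbol.

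The largest increases came from genes of unrelated roles, among them a matrix protein, a gap junction channel, an iron carrier and transporters of small molecules. Mp, which encodes a collagen of the basement membrane, had log2 levels of 8.81 and 8.75 in the H1 arrays, against 5.25 and 5.28 in the GFP arrays. The difference of 3.51 (standard error 0.082, 11.4-fold, limma adjusted p = 4.17e-06) was the largest among named genes above background in both groups. Inx3, an innexin that forms gap junctions, stood at 9.72 and 9.90 with H1 RNAi, against 6.69 and 6.95 with GFP RNAi, a difference of 2.99 (adjusted p = 2.15e-05 in limma). It was the only called member of 7 measured innexins. Mdr49, an ABC transporter related to P-glycoprotein, reached 7.83 in both H1 arrays, against 5.17 and 4.82 in the GFP arrays (difference 2.83). Tsf1, the transferrin of the haemolymph, reached 8.41 and 8.34, against 5.93 and 5.38 (difference 2.72). For these genes the H1 arrays lay close together and far above both GFP arrays.

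Further large increases included genes for a myosin, a meiotic factor, a cuticle protein and a channel partner. Myo28B1, an unconventional myosin, had log2 levels of 7.50 and 7.92 in the H1 arrays, against 4.28 and 4.86 in the GFP arrays (difference 3.14, standard error 0.204), with the widest spread among the 15 largest increases. Taf12L, a relative of a TFIID subunit, had 5.87 and 6.23, against 2.81 and 3.12, both at background, so that its difference was at least 2.78. The meiotic recombination gene narya had 7.57 and 7.41, against 4.89 and 4.82 (difference 2.64). Each of these 3 genes had H1 arrays more than 2 log2 units above the higher GFP array. Teh4, a relative of the sodium channel partner tipE, differed by 2.55, the cuticle protein gene Cpr64Ac by 2.33 and the cytochrome P450 gene Cyp28d1 by 2.61. Genes known by number made up the rest of the 15, namely CG5111 (at least 2.95, since its GFP arrays were at background), CG12535 (3.19), CG31272 (2.87), CG34002 (2.56) and CG4269 (2.42). All 15 calls held when any array was left out.

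**Figure D1:**
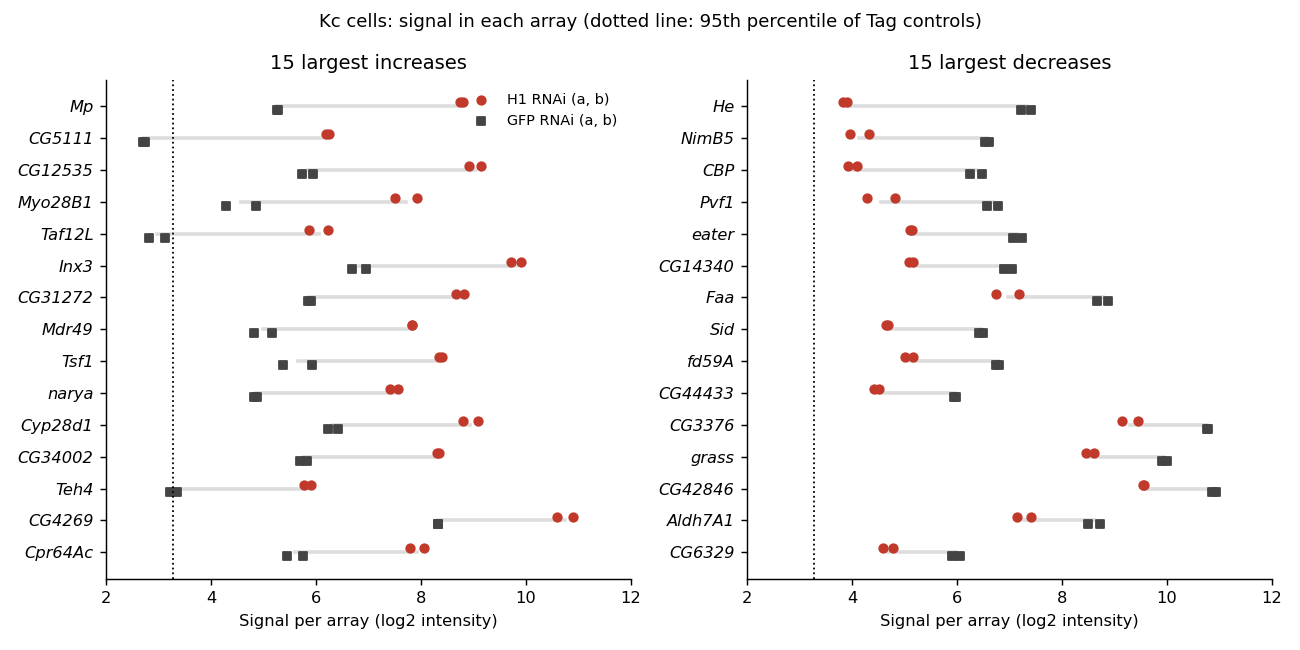
Log2 intensity in each Kc array for the 15 genes with the largest increases (left) and the 15 with the largest decreases (right). Circles are the H1 RNAi arrays, squares the GFP RNAi arrays, and the grey line joins the group means. Only called genes whose H1 and GFP arrays do not overlap were eligible, so the separation of the groups is built in. With H1 RNAi, He stood at 3.89 and 3.82 and CG4269 at 10.60 and 10.89.

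Decreases of more than 4-fold were few, and haemocyte and immune genes were prominent among them. He encodes hemese, a surface protein of haemocytes, and had log2 levels of 3.89 and 3.82 in the H1 arrays, against 7.22 and 7.41 in the GFP arrays. Its difference of -3.46 (standard error 0.096, adjusted p = 6.79e-06 in limma) brought it close to background. NimB5, a secreted Nimrod protein, had 4.32 and 3.96 with H1 RNAi, against 6.53 and 6.61 with GFP RNAi (difference -2.43). Eater, the phagocytosis receptor encoded by eater, had 5.15 and 5.10, against 7.06 and 7.23 (difference -2.02). Pvf1, a growth factor related to PDGF and VEGF, had 4.28 and 4.81, against 6.57 and 6.78 (difference -2.14). In each of these 4 genes both H1 arrays lay below both GFP arrays by more than 1.5 log2 units. Among the remaining haemocyte markers Col4a1, a collagen IV chain, rose by 0.45, a call lost without GFP array b (adjusted p = 0.0762), and 13 of the 16 did not pass. At an unadjusted p under 0.05 in limma, 2 of the 16 were higher and 3 lower, the third being Ppn (-0.33, adjusted p = 0.0534), which encodes the matrix protein papilin.

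The other large decreases were of metabolic, nuclear and secreted proteins. CBP, a calcium-binding protein, had log2 levels of 4.10 and 3.92 with H1 RNAi, against 6.24 and 6.48 with GFP RNAi (difference -2.35). Faa, the last enzyme of tyrosine breakdown, had 7.19 and 6.74, against 8.67 and 8.88 (difference -1.81). Fumarylacetoacetase, the product of Faa, was alone in this, since none of the other 5 measured genes of phenylalanine and tyrosine breakdown was called. The nuclease gene Sid differed by -1.79, the forkhead factor gene fd59A by -1.69, grass, a protease of the Toll cascade, by -1.42 and the aldehyde dehydrogenase gene Aldh7A1 by -1.33. CG14340 (-1.85), CG44433 (-1.50), CG3376 (-1.47), CG42846 (-1.35) and CG6329 (-1.29) completed the 15, all of which stayed called without any 1 array. With all 10 arrays in the fit CG6329 was not called (adjusted p = 0.347).

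Increases were most frequent at middle levels of signal, while decreases made up similar shares of the middle and upper bins. Named genes were placed in 5 equal bins by their mean over the 4 arrays. In the lowest bin, with means up to 3.31, 16 of 2397 genes rose (0.668%) and 5 fell (0.209%). The middle bin, from 4.21 to 7.50, held 508 increases, 21.2% of its genes, and 190 decreases, 7.93%. In the brightest bin 113 genes rose (4.71%) and 214 fell (8.93%), and in the next brightest 182 (7.60%) and 261 (10.9%). The lowest bin lay near the Tag percentile of 3.27 and the second ended at 4.21, so a fall there had little room to be measured. Neither of them held a decrease of at least 2-fold. Decreases outnumbered increases in the upper 2 bins, and the reverse held in the lower 3, where the part of this limit was not tested. The median difference of all genes moved with this, at 0.02 in the middle bin and -0.07 and -0.06 in the upper 2, and its part in the counts was not tested. Of the 235 increases of at least 2-fold, 181 lay in the middle bin and 6 in the brightest. Median levels in the GFP arrays were 5.62 for the genes that rose and 8.63 for those that fell, beside 5.67 for all named genes. The median standard deviation of a gene within a group was 0.080 in the middle bin and 0.043 in the brightest. With bins set by the GFP arrays alone, the middle bin held 456 increases and 169 decreases, and the brightest 89 and 251.

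**Figure D2:**
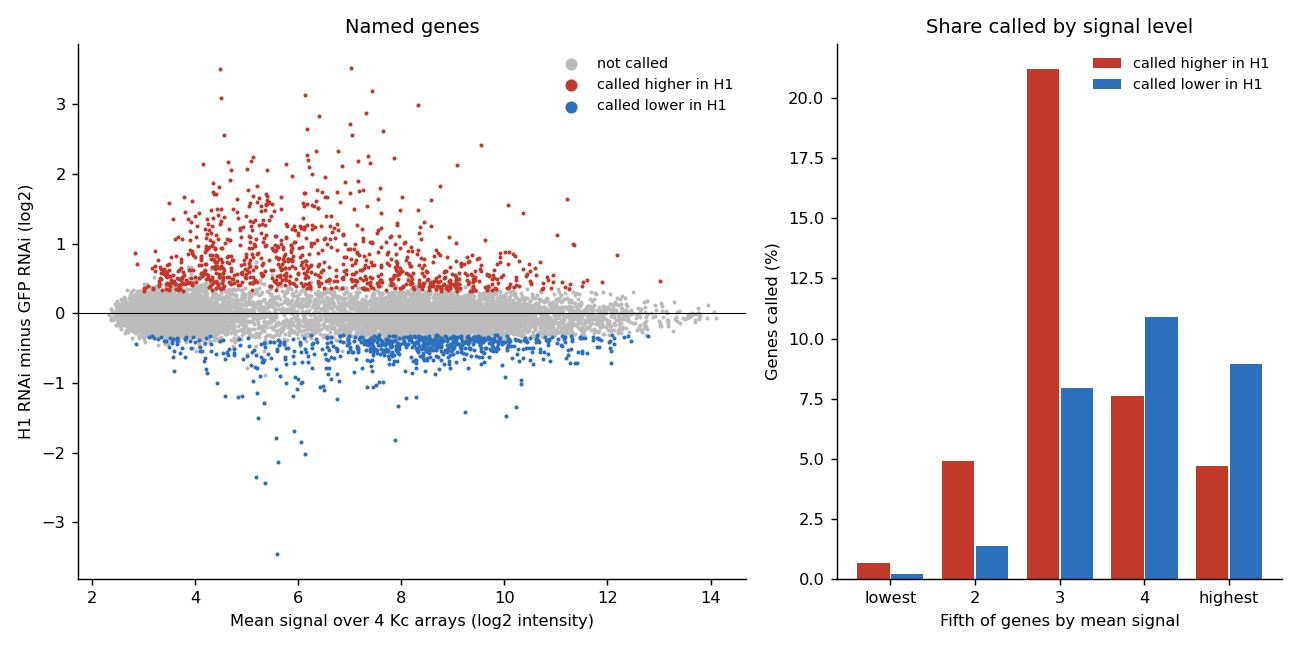
Left, the difference in log2 intensity, H1 minus GFP, against the mean over 4 Kc arrays for the named genes, with calls coloured. Right, the percentage of genes called higher and lower in each of 5 equal bins of mean signal. Increases peak in the middle bin at 21.2%, and decreases exceed increases in the upper 2 bins.

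Among the brightest genes, changes were small. The dsRNA-binding protein gene blanks had log2 levels of 12.63 and 12.57 in the H1 arrays, against 11.76 in both GFP arrays (difference 0.84, adjusted p = 0.000746 in limma). Sirup, an assembly factor of succinate dehydrogenase, had 11.79 and 11.62 with H1 RNAi, against 12.43 and 12.42 with GFP RNAi (difference -0.72). These 2 calls held in every refit without 1 array, and the other 8 of the 10 brightest called genes did not. Those were Arc1 (0.46), a capsid-forming protein gene, the insulin-binding protein gene ImpL2 (0.45), rgn (0.48) and the retinol dehydrogenase gene Rdh1 (0.39) on the higher side, with adjusted p up to 0.111 for Rdh1 without H1 array b. On the lower side were the disulfide isomerase gene ERp60 (-0.33), Nplp2 (-0.39), the chaperone gene Hsc70-3 (-0.33) and the initiation factor gene eIF3m (-0.33), with adjusted p up to 0.192 for ERp60 without GFP array b.

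Some genes at background in both GFP arrays gave a signal after H1 RNAi. A gene was taken as silent where both arrays of a group lay at or under 3.27 and as on where both lay above 3.43. In the GFP arrays 1933 named genes were silent, and 43 of them were on in both H1 arrays, of which 38 were called. Conversely, 2003 genes were silent in the H1 arrays, 9 of them were on in both GFP arrays, and 5 were called. The 43 and 9 genes were picked by values of these same arrays, so that most of the 43 were called is largely built in. The shares of all named genes called, 7.81% and 5.87%, are therefore no measure for them. Counted over all silent genes, 38 of 1933 left background and were called, and 5 of 2003 fell to it and were called. Most silent genes, 1661, were silent in both groups. The increases from silence were mostly small: 10 of the 38 reached 2-fold, 11 had an H1 mean above 4, and 25 were called without any 1 array.

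CG5111 went furthest from background, with log2 levels of 6.19 and 6.25 in the H1 arrays, against 2.74 and 2.71 in the GFP arrays. Because a level at background has no measured size, its difference is given as at least 2.95, counted from the Tag percentile of 3.27 to the H1 mean, and Taf12L rose in the same way by at least 2.78. CG12869 had 5.16 and 5.29 with H1 RNAi, against 3.15 and 3.02 with GFP RNAi, a difference of at least 1.95. Neverland, encoded by nvd, carries out the first step of ecdysteroid synthesis from cholesterol and had 4.56 and 4.67, against 2.83 and 3.07 (at least 1.34). That the lower H1 array stood above every Tag control in all 4 genes follows from the rule by which they were picked. Smaller rises included kmr (at least 1.47), CG14691 (at least 1.30), CG15544 (at least 1.27), ltl (at least 1.01), CG16898 (at least 0.98), CG30324 (at least 0.87) and the zinc finger factor gene cas (at least 0.77). Est-Q, CG34431, CG31809 and the cilium gene BBS9 rose by at least 0.67, 0.39, 0.39 and 0.57, and of these 15 genes BBS9 was the one whose call was lost without 1 array (adjusted p = 0.0547 without H1 array b). With all 10 arrays in the fit BBS9 stayed called, while CG16898 (adjusted p = 0.2), cas (0.183), CG31809 (0.168) and Est-Q (0.115) were not.

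Decreases into background were fewer and less firm. CG31230 had log2 levels of 3.12 and 3.24 in the H1 arrays, against 3.95 and 4.07 in the GFP arrays, and was lower by at least 0.74, since only its upper side was measured. By the same reckoning mab-21 fell by at least 0.46, CG13280 fell by at least 0.32, the serpin gene Spn100A fell by at least 0.23 and Iris fell by at least 0.19. These 4 calls were each lost without at least 1 array, with adjusted p up to 0.0649 for mab-21 and 0.131 for CG13280 without GFP array a, 0.176 for Iris without H1 array a and 0.157 for Spn100A without H1 array b. The count of 5 became 3 without GFP array b and 1 without any of the other arrays.

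**Figure D3:**
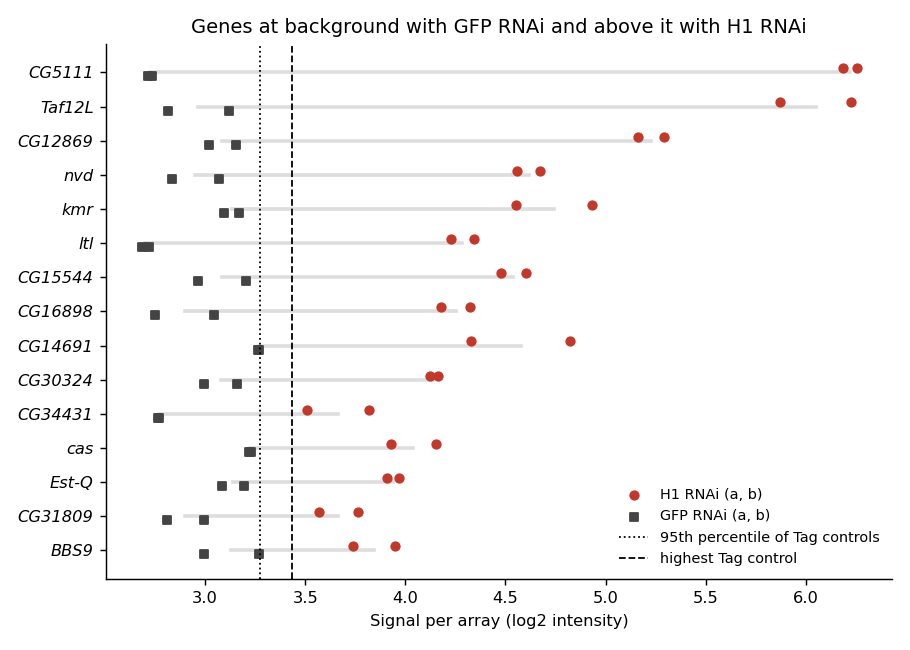
Log2 intensity in each Kc array for the 15 genes with the largest fitted increase among those at background in both GFP arrays and above it in both H1 arrays. Circles are H1 RNAi arrays and squares GFP RNAi arrays, and the vertical lines mark the 95th percentile (3.27) and the highest value (3.43) of the Tag controls. CG5111 and Taf12L stand apart from the others, whose H1 levels lie closer to the lines.

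Genes that left background in Kc cells were at background in the glands with nau RNAi at a smaller share than all genes silent in the GFP arrays, a description with no test. Of the 38, 25 (65.8%) were at or under the gland Tag percentile of 3.59 in all 3 gland arrays labelled nau RNAi, beside 80.6% of the 1933 genes, and 7 (18.4%) lay above the highest gland Tag value of 4.08 in all 3, beside 6.47%. CG16898 and ltl were among those 7. Whether a Kc gene that left background tends to be a gland gene was not tested.

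Families of genes with a shared symbol were read against the shares of all named genes, 7.81% higher and 5.87% lower. The 57 families held 1398 genes, of which 106 rose and 54 fell, and 21 families had at least 3 called members. The cytochromes P450, which oxidise hormones, lipids and foreign compounds, had the most. Of 81 measured P450 genes 22 rose (27.2%) and 3 fell (3.70%), 17 of the increases held in every refit without 1 array, and the median difference over the 81 was 0.07. Only 56 of the 81 had a mean above the highest Tag value, and a gene could pass the test through the group where it is high. The count describes the family and was not tested against other families.

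Cyp28d1 led the P450 increases, with log2 levels of 8.79 and 9.09 in the H1 arrays, against 6.23 and 6.43 in the GFP arrays (difference 2.61, adjusted p = 3.74e-05 in limma). Cyp6d5 had 8.83 and 9.10 with H1 RNAi, against 6.61 and 6.86 with GFP RNAi (difference 2.23), and the mitochondrial P450 gene Cyp12c1 had 6.15 and 6.22, against 3.97 and 4.03 (difference 2.18). In these 3 genes both H1 arrays lay far above both GFP arrays. Cyp12d1-d rose by 1.62, and a probe set shared by the near-identical Cyp12d1 copies had 10.45 and 10.28, against 8.38 and 8.24 (difference 2.05), so these copies cannot be told apart. The next largest increases were those of Cyp6w1 (1.56), Cyp4aa1 (1.50), Cyp301a1 (1.50), Cyp6d2 (1.43), Cyp28a5 (1.35) and Cyp9b1 (1.25). Cyp4ac3 (1.17), the ecdysone-inactivating Cyp18a1 (1.10) and Cyp49a1 (1.05) came next, followed by Cyp12a5 (0.90), Cyp6a8 (0.88), Cyp6a21 (0.74) and Cyp6g1 (0.71), the enzyme known from DDT resistance. The increases of Cyp4p1, Cyp6d4, Cyp6a20, Cyp6a2 and Cyp4d2 (0.46 to 0.69) and the decreases of Cyp6a9 (-0.63), Cyp6v1 (-0.45) and Cyp6u1 (-0.32) were lost without at least 1 array, with adjusted p from 0.0549 for Cyp6d4 without H1 array b to 0.184 for Cyp6u1 without H1 array b. With all 10 arrays in the fit the calls of Cyp6w1 (adjusted p = 0.0556), Cyp6a8 (0.0773), Cyp6a21 (0.0931) and Cyp6g1 (0.208) were lost as well.

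The enzymes that conjugate the products of P450s changed in both directions. Of 35 UDP-glycosyltransferases, which attach sugars to lipophilic compounds, 8 rose (22.9%) and 2 fell (5.71%). Ugt305A1 had log2 levels of 7.42 and 7.60 with H1 RNAi, against 5.30 and 5.07 with GFP RNAi (difference 2.32), and Ugt302K1 (1.48), Ugt49C1 (1.11), Ugt36E1 (0.84), Ugt35C1 (0.72) and Ugt302C1 (0.65) rose in every refit without 1 array. Ugt317A1 fell by 0.55 and did so in those refits as well. With all 10 arrays in the fit Ugt35C1 (adjusted p = 0.411) and Ugt317A1 (0.13) were not called. The calls of Ugt302E1 (at least 0.38, from background), Ugt37C2 (0.39) and Ugt35A1 (-0.42) were lost, with adjusted p of 0.119 and 0.153 without H1 array b and 0.0983 without GFP array b. Of 34 glutathione transferases 4 rose (11.8%) and 6 fell (17.6%). GstS1 had 8.53 and 8.76, against 7.70 and 7.80 (difference 0.90), GstD7 had 7.05 and 6.96 in the H1 arrays, against 7.98 and 8.07 in the GFP arrays (difference -1.02), and GstT1 fell by 0.60. Those 3 held in every refit without 1 array, although GstD7 did not with all 10 arrays (adjusted p = 0.14), and the other 7 did not hold, with adjusted p from 0.064 for GstD5 without H1 array b to 0.154 for GstE13 without GFP array b.

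Of 10 ABC transporter genes 3 rose and none fell, with no decrease called by limma. Beside Mdr49, Mdr50 had log2 levels of 3.79 and 3.50 in the H1 arrays, against 3.02 and 2.95 in the GFP arrays, where it was at background, a rise of at least 0.37 that was not called with all 10 arrays in the fit (adjusted p = 0.054). Abca3 (0.50) was lost without H1 array b (adjusted p = 0.0754).

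The Nimrod, serpin and tetraspanin families held more decreases than increases. Of 12 Nimrod genes, which encode proteins with EGF-like repeats that serve in phagocytosis, none rose and 3 fell (25.0%), namely NimB5, eater and NimB4. NimB4 differed by -0.50 and was lost without H1 array a (adjusted p = 0.0524). Of 27 serpins, inhibitors of serine proteases, 1 rose and 5 fell (18.5%). Spn28Dc, a regulator of melanization, had log2 levels of 7.08 in both H1 arrays, against 8.04 and 8.10 in the GFP arrays (difference -0.99). Spn42Dc fell by 0.79 and Spn27A, which holds back the Toll and melanization cascades, by 0.60, and these 3 held in every refit without 1 array, although Spn28Dc was not called with all 10 arrays (adjusted p = 0.469). Spn55B (-0.50), Spn100A and Spn38F (at least 0.22, from background) were lost without 1 array, with adjusted p of 0.0626 without H1 array b, 0.157 without H1 array b and 0.176 without GFP array a. Of 34 tetraspanins, membrane organisers, 3 fell (8.82%) and 1 rose (2.94%), beside 5.87% and 7.81% of all named genes. Tsp2A (-1.05) and lbm (-0.67) held without any 1 array, lbm not with all 10 arrays (adjusted p = 0.365). Tsp42Ej (-0.35) was not called without H1 array a, nor was Tsp42Ei (0.42) without H1 array b.

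Families expressed in sense organs, cuticle and nerve held a few large increases among many genes near background. Of 57 odorant receptor genes 9 had a mean above the highest Tag value, 2 were called higher (3.51%) and 1 was called lower (1.75%). Or10a had log2 levels of 4.51 and 5.28 in the H1 arrays, against 3.63 and 3.59 in the GFP arrays (difference 1.28), and a probe set shared by Or19 genes had 7.69 and 7.91, against 6.47 and 6.42 (difference 1.36). Of 56 gustatory receptor genes 3 rose (5.36%), of which Gr10a (1.36) and Gr61a (0.69) held and Gr94a (0.50) was lost without GFP array a (adjusted p = 0.0542). Of 53 ionotropic receptor genes 3 rose (5.66%), of which Ir40a (0.58) held, while Ir68a (0.46) and Ir25a (0.33) had adjusted p of 0.0548 without H1 array b and 0.173 without H1 array a. The calls of Or9a (0.89) and Or59a were lost without GFP array a (adjusted p = 0.0807 and 0.0891), and Or59a lay at background in all 4 arrays, so it has no measured difference. With all 10 arrays in the fit Ir40a was not called (adjusted p = 0.118). Of 47 odorant binding protein genes 3 rose (6.38%), with Obp49a at 8.36 and 8.56, against 6.15 and 6.46 (difference 2.15), Obp19d at 0.94, and Obp18a at 0.49, which had an adjusted p of 0.0819 without GFP array b. In the fit of all 10 arrays Obp49a was not called either (adjusted p = 0.402). All these shares lay under those of all named genes.

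Of 105 cuticle protein genes 5 rose (4.76%) and 3 fell (2.86%). Cpr49Ae had log2 levels of 5.55 and 5.90 with H1 RNAi, against 3.41 and 3.71 with GFP RNAi (difference 2.17), Cpr72Ec differed by 2.20, Cpr64Ad by 0.79 and Cpr67Fa1 by 0.61, and all held without any 1 array, Cpr64Ad not with all 10 arrays (adjusted p = 0.0598). The decreases of Lcp9 (-0.48), Lcp65Ad (-0.37) and TwdlY (-0.37) were lost without 1 array, with adjusted p of 0.154 for Lcp9 without GFP array b, and 0.144 for Lcp65Ad and 0.215 for TwdlY without H1 array b. Of 28 pickpocket sodium channels 4 rose (14.3%), of which ppk17 (1.41) and ppk20 (0.86) held, while ppk29 (0.49) and ppk12 (0.36) had adjusted p of 0.0715 and 0.183 without H1 array b. Of 43 beat, dpr and DIP genes, which encode immunoglobulin proteins of synaptic partner choice, 5 rose (11.6%) and 1 fell (2.33%). The rise of beat-IIIc was the largest of these, with levels of 5.94 and 6.17, against 3.99 and 3.96 (difference 2.07), followed by dpr20 (1.76). The gene dpr7 rose by at least 0.45 from background and was not called with all 10 arrays (adjusted p = 0.585). The calls of dpr19 (at least 0.45, from background), dpr14 (0.50) and beat-IIIa (-0.39) had adjusted p between 0.121 and 0.149 without H1 array b.

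**Figure D4:**
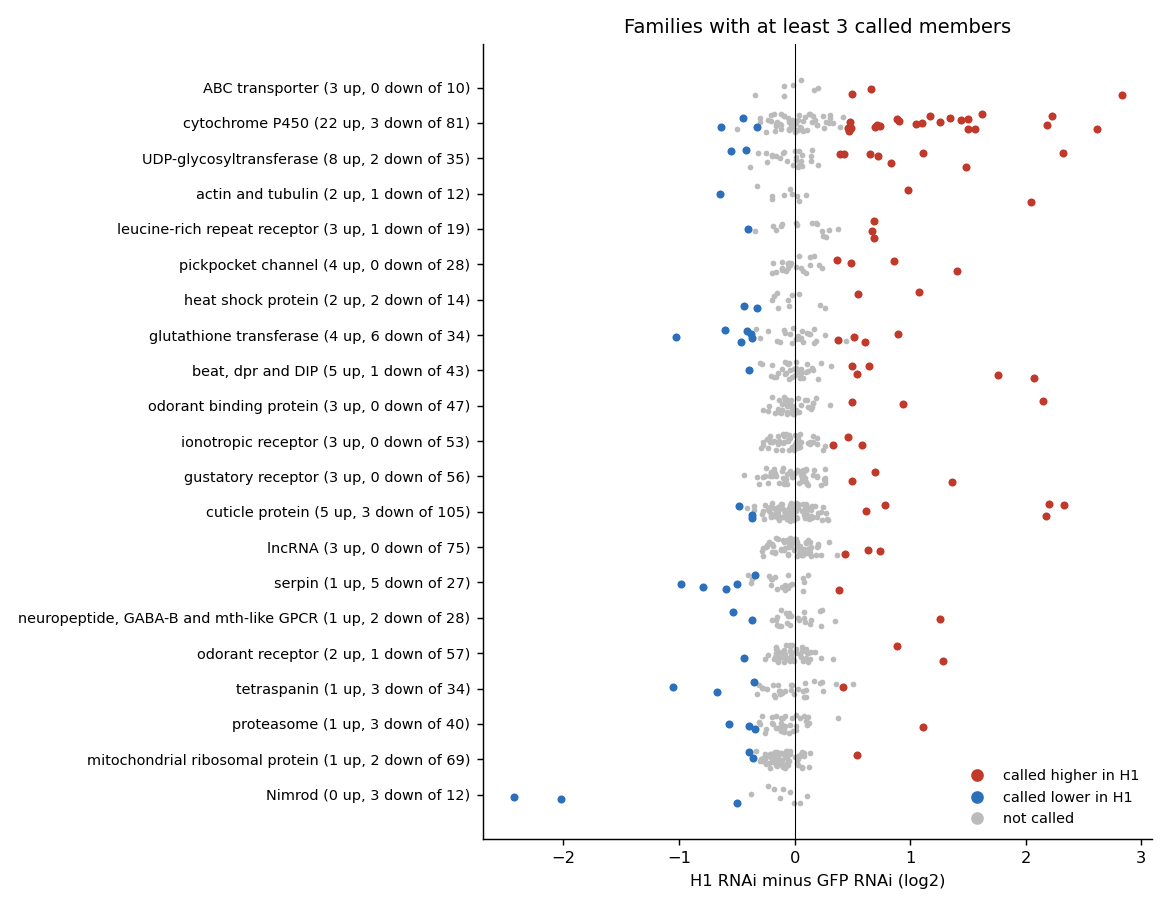
Difference in log2 intensity, H1 minus GFP, for each measured gene of the 21 families with at least 3 called members, with red for genes called higher, blue for genes called lower and grey for the others. Vertical scatter within a row has no meaning. The P450 row has 22 red points and the Nimrod row has 3 blue ones.

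The few calls among genes for tubulins and proteasome subunits went both ways. Of 12 actin and tubulin genes 2 rose (16.7%) and 1 fell (8.33%), beside 7.81% and 5.87% of all named genes. The maternal tubulin genes alphaTub67C and gammaTub37C rose. The first had log2 levels of 6.31 and 6.54 in the H1 arrays, against 4.38 and 4.37 in the GFP arrays (difference 2.05), and the other rose by 0.98, while betaTub97EF fell by 0.64, which was not called with all 10 arrays (adjusted p = 0.0563). Of 40 proteasome genes 1 rose (2.5%) and 3 fell (7.5%), beside the same shares of all named genes. Prosbeta2R2, a male germline paralog, rose by 1.11. Rpt3R, another paralog, fell by 0.57, a call lost with all 10 arrays (adjusted p = 0.125). Rpn7 (-0.34) and Prosalpha5 (-0.40), subunits of the general proteasome, had adjusted p of 0.19 without H1 array b and 0.11 without GFP array b. Of 41 cytoplasmic ribosomal protein genes the paralogs RpS5b (0.88) and RpS19b (-0.52) were called, neither with all 10 arrays (adjusted p = 0.157 and 0.0943). Of 69 mitochondrial ribosomal protein genes mRpS5 rose (0.54, 1.45% of them), while mRpL11 (-0.40) and mRpL17 (-0.36) fell (2.90%), calls that were lost without 1 array. Both shares lay under those of all named genes. At an unadjusted p under 0.05 in limma, 1 of the 69 was higher and 14 were lower, with a median difference of -0.12 over the family. The 40 proteasome genes had 2 higher and 9 lower in that way, with a median of -0.10. The median of all named genes was -0.03.

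Heat shock genes and the remaining families had few calls, read beside 7.81% higher and 5.87% lower of all named genes. The 14 heat shock genes had 2 rises (14.3%) and 2 falls (14.3%), and the 19 leucine-rich repeat receptor genes 3 (15.8%) and 1 (5.26%). For 28 neuropeptide, GABA-B and mth-like receptor genes there were 1 (3.57%) and 2 (7.14%). Among 75 noncoding RNA genes 3 rose (4%) and none fell. Hsp26 had log2 levels of 10.86 and 10.92 in the H1 arrays, against 10.29 and 10.40 in the GFP arrays (difference 0.55), and was not called with all 10 arrays (adjusted p = 0.791). The small chaperone gene l(2)efl had 7.19 and 7.32, against 6.57 and 5.78 (difference 1.08), and its call was lost without H1 array b (adjusted p = 0.0899). Hsp110 (-0.44) and Hsc70-3 (-0.33) had adjusted p of 0.105 without GFP array b and 0.167 without H1 array b. Among receptors with leucine-rich repeats, 18w (0.69), a Toll relative, and kek1 (0.67) rose in every refit without 1 array and were not called with all 10 arrays (adjusted p = 0.129 and 0.128). The calls of kek5 (0.68) and haf (-0.40) were lost without H1 array b (adjusted p = 0.153 and 0.186). Among G protein-coupled receptors mthl14 rose by 1.26 and mth fell by 0.54, and Dh31-R (-0.36) had an adjusted p of 0.155 without GFP array b. The noncoding RNA genes lncRNA:mimi (0.74) and lncRNA:CR43836 (at least 0.37, from background) rose, the first of them not called with all 10 arrays (adjusted p = 0.22), and lncRNA:CR33942 (0.44) had an adjusted p of 0.101 without GFP array b.

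No gene was called in 6 families, among them 45 genes of testis and seminal fluid proteins, of which 10 lay above the highest Tag value, 15 zinc transporters and 9 SmydA methyltransferases. At an unadjusted p under 0.05 in limma these counts were 4, 5 and 0. Of 12 probe sets shared by repeated or near-identical genes 7 were called, all of them higher, and those of Cyp12d1 and Or19 are given above. The 12 were picked by symbol from 402 probe sets with several symbols. Over all 402, 13.7% were called, with 37 higher and 18 lower, so the direction among the 12 is not a trait of shared probe sets at large. One probe set shared by the glutathione synthetase genes Gss had log2 levels of 10.33 and 10.40 in the H1 arrays, against 9.75 and 9.48 in the GFP arrays. Its difference was 0.74 (adjusted p = 0.0049 in limma), while the other Gss probe set differed by 0.36 (adjusted p = 0.0785). Of 4 probe sets for Hsp70, the inducible heat shock genes, 2 were called, with differences of 0.54 and 0.46. One for His4 had log2 levels of 9.19 and 9.32 with H1 RNAi, against 8.76 and 8.86 with GFP RNAi (difference 0.44, adjusted p = 0.0215 in limma), another for His4 differed by 0.14 (adjusted p = 0.363) and that for His2A by -0.08 (adjusted p = 0.624). The Stellate repeat probe set Ste had 6.99 and 7.20, against 6.53 and 6.31 (difference 0.67, adjusted p = 0.00964). Without H1 array b the calls of Hsp70 (adjusted p = 0.177 and 0.127), His4 (0.11) and Ste (0.0538) were lost, and that of Gss held. Single copies cannot be separated by these probe sets.

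Pathway lists were short and most held 1 to 3 called genes. Their counts stand beside 7.81% higher and 5.87% lower of all named genes, and no list was tested. Septate junctions seal insect epithelia, and of 14 genes for their proteins 5 rose and 1 fell, with a median difference of 0.17, beside -0.03 for all named genes. Gli, which encodes gliotactin of the tricellular junction, had log2 levels of 8.35 and 8.77 with H1 RNAi, against 7.22 and 7.31 with GFP RNAi (difference 1.30). The adhesion molecule gene Nrg had 7.06 and 7.16, against 6.22 and 6.10 (difference 0.95), the claudin-like gene sinu differed by 0.70 and Tsf2, a transferrin needed at these junctions, by 0.47. These 4 held in every refit without 1 array, while Lac (0.56) was lost without GFP array a (adjusted p = 0.0633) and the scaffold gene vari (-0.40) had an adjusted p of 0.115 without GFP array a. Of 12 genes listed for amino acid and peptide transport 4 rose and none fell. The amino acid transporter gene path differed by 1.25, and yin, a peptide transporter gene, had 8.63 and 8.47, against 7.49 and 7.58 (difference 1.01). Picot (0.95), whose name refers to phosphate transport, also held without any 1 array, though not with all 10 (adjusted p = 0.199), while NAAT1 (0.44) had an adjusted p of 0.127 without H1 array b.

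Among genes of the endoplasmic reticulum and of lipid stores, the calls were decreases. Of all named genes 5.87% were called lower, and 4859 of 18769 probe sets had an unadjusted p under 0.05 in limma. Of 12 genes of the unfolded protein response none rose and 4 fell in limma, with a median difference of -0.24, and at an unadjusted p under 0.05 there were 2 higher and 7 lower. The sensor gene Atf6 had log2 levels of 6.82 and 6.88 in the H1 arrays, against 7.67 and 7.59 in the GFP arrays (difference -0.78), and held in every refit without 1 array. The calls of Manf (-0.34), Hsc70-3 (-0.33) and ERp60 (-0.33) were lost, with adjusted p of 0.142 without H1 array a, 0.167 without H1 array b and 0.192 without GFP array b. Of 12 genes for lipid synthesis and storage 3 fell, with a median of -0.20, and at an unadjusted p under 0.05 there were 2 higher and 5 lower. The acyltransferase gene mdy (-0.54) held without any 1 array and not with all 10 (adjusted p = 0.0624), whereas Lpin (-0.65), a phosphatidate phosphatase gene, and bmm (-0.51), whose lipase breaks lipid stores down, had adjusted p of 0.0545 and 0.0726 without H1 array b. Of 10 glycolysis genes Pfk rose by 0.63, and of 8 genes of the tricarboxylic acid cycle Ogdh fell (-0.43), which was lost without GFP array b (adjusted p = 0.1).

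In signalling pathways the calls were scattered. The Hedgehog pathway transcription factor gene ci had log2 levels of 7.25 and 7.40 in the H1 arrays, against 5.53 and 5.63 in the GFP arrays (difference 1.74, adjusted p = 4.43e-05 in limma), and was the only call of 12. Of 14 genes of Dpp and activin signalling, the ligand genes Actbeta (0.62), dpp (0.49) and daw (0.45) rose and the inhibitor gene Dad (-0.31) fell, of which Actbeta held in every refit without 1 array and not with all 10 arrays (adjusted p = 0.2). The others had adjusted p of 0.0542 for dpp and 0.185 for Dad without GFP array b, and 0.0795 for daw without H1 array b. The calls of fng (0.58), numb (0.47) and neur (-0.67) among 8 Notch genes, of S (0.52), aos (-0.50) and drk (-0.43) among 11 EGFR and Ras genes, of Axn (0.44) and por (-0.67) among 3 Wnt genes and of kibra (0.45) among 11 Hippo genes were each lost without 1 array. Their adjusted p ranged from 0.0614 for aos without H1 array b to 0.134 for kibra without H1 array b. Of 12 synaptic genes, 2 rose and held, cpx (0.85), a regulator of vesicle fusion, and the calcium channel gene cac (0.78). The fascin gene sn, alone among 14 actin regulators, had 6.11 and 5.90, against 4.43 and 4.67 (difference 1.46), and was not called with all 10 arrays (adjusted p = 0.0749). Of 14 adhesion genes the integrin gene mew (-0.56) and stck (-0.36) fell, with adjusted p of 0.112 without H1 array b for mew and 0.15 without GFP array b for stck, and of 10 lamina and envelope genes klar rose (0.35), with an adjusted p of 0.196 without GFP array a. None of 11 lysosome genes was called in limma, and 2 had an unadjusted p under 0.05.

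Genes called in one direction had a neighbour called in that direction at a larger share than all genes had, a description that was not tested. Named genes were put in the order of their start sites on each chromosome, and 11876 pairs were adjacent in that order. Of 932 placed genes that rose, 233 (25.0%) had a neighbour that rose, beside 14.9% of all placed genes. Of 703 genes that fell, 154 (21.9%) had a neighbour that fell, beside 11.3% of all. There were 129 pairs with both genes higher, 83 with both lower and 86 called in opposite directions. The correlation of the differences of adjacent genes was weak (Pearson r = 0.11 over pairs that share arrays and, in part, overlapping transcripts). Without pairs that overlap in the table, the shares were 19.1% for increases, beside 11.8%, and 17.8% for decreases, beside 8.69%. Runs were short, with 21 runs of at least 3 higher genes and 11 of at least 3 lower genes, 5 runs of 4 and none longer. The share for decreases depended on single arrays and was 13.9% without H1 array a, 10.4% without H1 array b, 12.5% without GFP array a and 8.99% without GFP array b, beside 6.74%, 4.27%, 6.76% and 4.41% of all genes in the same refits.

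Among adjacent pairs called in 1 direction, the one with the largest smaller change was NimB5 and He, whose differences of -2.43 and -3.46 are given above, and with NimB4 (-0.50) they formed a run of 3 within the Nimrod cluster. NimB4 had log2 levels of 3.43 and 3.55 with H1 RNAi, against 3.97 and 4.00 with GFP RNAi, close to background, and its call was lost without H1 array a (adjusted p = 0.0524). NimB1, NimB2, NimB3, NimC1 and NimC2 of that cluster were not called. Their GFP means, from 3.43 for NimC2 to 4.11 for NimB2, were already close to background. A fall like that of He could therefore not have been measured in them. Cyp28a5 (1.35) and bgm (0.75), which lie nearby in the order, rose. He overlaps NimB5 in the gene table. Among the increases, CG6830, CG6834, CG6908 and CG18765 formed a run of 4, with CG6830 at 7.45 and 7.77, against 6.03 and 6.01 (difference 1.59), and the others at 1.40, 0.80 and 1.12. All 4 held in every refit without 1 array, and the genes on both sides, Taf12 and Fer3, were not called. CG14691 (at least 1.30, from background) and CG31272 (2.87) were followed by the Mediator gene MED7 (0.40) and the condensin gene Cap-H2 (0.53), whose calls had adjusted p of 0.146 without GFP array b and 0.0576 without H1 array b.

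Chemoreceptor genes lay in such a run as well. Gr10a had log2 levels of 5.56 and 5.49 in the H1 arrays, against 4.35 and 3.97 in the GFP arrays, and overlaps Or10a, whose values are given above, in the table. Next to them Gs2, glutamine synthetase, had 8.32 and 8.39, against 6.73 and 6.72 (difference 1.63). The 3 calls held in every refit without 1 array. Other runs of higher genes were Obp49a with CG8768 (1.68) and wuc (0.35, adjusted p = 0.18 without GFP array b), Syngr (0.90), CG30484 (1.28) and CG30485 (1.67), CG17121 (1.54) with p53 (0.73) and Gr94a, CG5715 (1.07) with the polarity gene crb (1.13) and BRWD3 (0.51), and Ugt302K1, Ugt302E1 and Ugt302C1. The trypsin genes epsilonTry (1.25) and betaTry (1.00) stood beside CG13202 (0.47, adjusted p = 0.11 without GFP array b). With all 10 arrays in the fit Syngr (adjusted p = 0.524), BRWD3 (0.154), epsilonTry (0.806) and betaTry (0.685) were not called. Pairs of large increases that overlap in the table were CG12535 with CG14269 (1.87), CG5568 (1.73) with CG18586 (1.67) and CG6870 (1.48) with Sytalpha (1.40). Pairs without overlap included ppk17 with Cyt-b5-r (1.49) and CG33775 (1.31) with Cyp301a1. Among the decreases, Sirup and Spn28Dc enclosed Wwox (-0.46, adjusted p = 0.0781 without H1 array b), and grass lay between Men-b (-0.41) and CG5909 (-0.45), whose calls had adjusted p of 0.107 without H1 array b and 0.0702 without GFP array b.

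**Figure D5:**
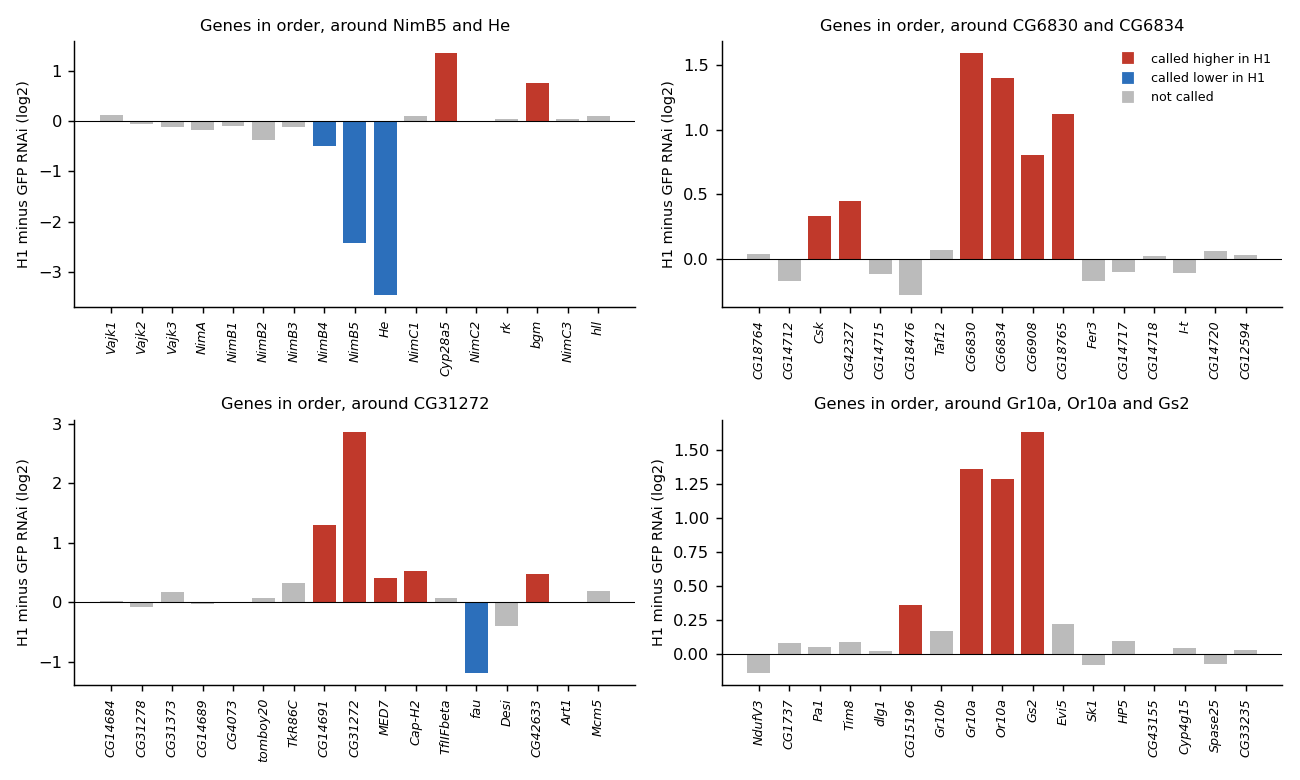
Difference in log2 intensity, H1 minus GFP, for consecutive measured genes in chromosomal order around 4 groups of called genes, 1 bar a gene, with red for genes called higher, blue for genes called lower and grey for the others. Bars are evenly spaced and do not show distance. Called genes stand beside genes with differences near 0, as with He at -3.46 and its neighbour NimC1 at 0.11. NimC1 had a GFP mean of 3.62, close to background, so a fall there could hardly be measured.

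Markers of other cell types moved in single genes. Of 10 salivary gland markers the transcription factor gene sage rose (0.69) and no glue gene did. Of 4 muscle markers Mlc2, a myosin light chain gene, had log2 levels of 5.10 and 5.12 with H1 RNAi, against 4.29 and 4.30 with GFP RNAi (difference 0.82). Of 4 midgut markers LManI, a mannosidase gene, fell by 0.63. The calls of Mlc2 and LManI were lost with all 10 arrays (adjusted p = 0.279 and 0.256). None of 4 fat body, 5 neuron or 3 germline markers was called in limma, while 1, 1 and 2 had an unadjusted p under 0.05. The log2 of the summed intensity was 6.21 and 6.18 in the H1 arrays, against 5.87 and 5.90 in the GFP arrays for muscle, and 8.77 and 8.81, against 8.48 and 8.45 for salivary gland. It was 6.95 and 6.85, against 7.38 and 7.40 for midgut. The sums of the groups overlapped for fat body and neuron, and were 10.59 and 10.56, against 10.54 and 10.56 for germline. The part of other cell types in the results was not tested.

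For some genes, several probe sets gave different answers. Of 1094 genes with more than 1 probe set, 289 had at least 1 called, 38 had all called in the same direction, and 7 (Arc1, CG42788, Exn, Nop60B, Ubr3, cact and sick) had calls in both directions. The probe set of Arc1 used above differed by 0.46. Another probe set of Arc1 had log2 levels of 9.41 and 7.58 in the H1 arrays, against 10.13 and 11.09 in the GFP arrays (difference -2.11, adjusted p = 0.048 in limma). Its 4 arrays rank as those of the 18S rRNA control do, and the part of that control was not tested. The pseudouridine synthase gene Nop60B had 11.34 and 11.15, against 11.76 and 11.81 at 1 probe set (difference -0.54) and 8.86 and 9.09, against 7.74 and 7.73 at another (difference 1.24). For cact, the inhibitor of the Toll pathway factors, the differences were -0.46 and 0.34. The direction of these 7 genes is therefore not settled.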

How the data were processed

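RNA was extracted with TRIzol, labelled with biotin and hybridised to Affymetrix Drosophila arrays, per the labels' protocols. The deposited table holds 1 linear intensity per probe set and array, summarised by the authors with RMA, per the submitters' processing notes, while its version, settings and the arrays normalized together are not given in the sources used here. RMA usually brings arrays to 1 distribution, and then a change shared by most genes would not be measured.

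Log2 of the deposited intensity was modelled in R 4.3.3 by limma 3.58.1 (lmFit, then eBayes with its default prior, 2 group means, two-sided) on the 4 Kc arrays, over 18769 probe sets left after 183 Affymetrix controls. Benjamini-Hochberg adjusted p under 0.05 made a call. Of these probe sets 13647 carried 1 gene symbol, 402 several and 4720 none, 13544 matched RefSeq by gene number, and the brightest represented each of 11982 genes. RefSeq start sites gave the order of 11883 genes, with no coordinates used otherwise. The fit was tested on simulated data. No sequence, strand or genome was used here, and some genes are not reported here.

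The members, gene families and lists were chosen with earlier results of these data known. Genes named are the 15 largest changes each way, the 15 largest increases from background and the reverse, called members of lists and of families with at least 3 calls, runs of at least 3 neighbours and the 8 leading pairs (examples are given of the runs), the 5 brightest calls each way and genes with opposed probe sets. The 15 largest changes each way were taken among called genes whose H1 and GFP arrays do not overlap. Genes outside these rules, such as RpS5b, RpS19b and the uncalled neighbours, were chosen after their values were seen. Letters a and b are shared by the groups, but nothing says that a letter marks a shared culture, and same-letter deviations correlated at r = -0.0032. The alternatives were all 10 arrays in 1 fit, a block for the letter, each array left out, quantile normalization, median centring, a pseudocount of 16, a filter on dim probe sets, a trended robust prior, other rules for silence and for neighbours, and other probe sets per gene.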

Additional observations from a re-analysis of the deposited data

Results flagged for a closer look

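For 7 of the 30 genes with the largest changes in Kc cells (23.3%), 1 of 15 increases and 6 of 15 decreases, all 3 gland arrays with H1 RNAi lay on the other side of all 3 gland arrays with nau RNAi from the direction in Kc cells. That share is near the background, since the gland arrays lay on the other side for 21.4% of all genes that rose in Kc cells and for 30.0% of those that fell. The glands had a different control, so the 2 contrasts are alike only in the gene targeted. The genes were picked for this opposition in the same arrays, so the difference between the contrasts, glands minus Kc, is given with no test. Inx3, the gap junction gene, averaged 9.88 ± 0.18 in H1 glands, against 10.20 ± 0.06 in nau glands (log2, SD, n = 3 each), and its contrasts differed by -3.31. The haemocyte gene He averaged 7.69 ± 0.71 in H1 glands, against 4.56 ± 0.24 in nau glands, and its contrasts differed by 6.60. For eater, the phagocytosis receptor gene, the gland means were 7.40 ± 0.33 with H1 RNAi and 4.40 ± 0.36 with nau RNAi, and the contrasts differed by 5.02. The contrasts of Pvf1 differed by 3.03, of fd59A by 2.32, of grass by 1.75 and of CG42846 by 1.63. The cause of these differences was not tested.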

How the results depend on the processing

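None of 290 named genes changed direction under any alternative fit, but this was largely fixed in advance. All 10 arrays in the fit, the replicate block, the dim filter and the trended prior leave the group means, and so each difference, unchanged. A gene whose H1 and GFP arrays do not overlap cannot change direction when 1 array is left out. The calls themselves were less firm: 130 of the 290 stayed called with all 10 arrays in the fit, and some were lost when 1 array was left out. Called probe sets (2152) became 771 with all 10 arrays in the fit, 3390 with a pseudocount of 16, 3664 with a trended robust prior, 341 at a minimum of 2-fold and 1132 to 1547 with 1 array left out. With the letters a and b as a replicate block, which share only a name, there were 2807 calls. Genes higher (936) became 416 with all 10 arrays and 610 to 745 with 1 array left out. Genes lower (703) became 188 with all 10 arrays, 1457 with the pseudocount, 1538 with the trended prior and 259 to 416 with 1 array left out. Called genes that left background (38) became 16 with all 10 arrays, 60 with silence set at the highest Tag value, 6 at the median Tag value and 28 to 31 with 1 array left out. Called genes that fell to background (5) became 1 with all 10 arrays, 8 with the replicate block, 8 with median centring, 2 with the pseudocount, 10 at the highest and 0 at the median Tag value, and 1 to 3 with 1 array left out. The share of higher genes with a higher neighbour (25.0%) became 14.2% with all 10 arrays, 28.9% with the replicate block, 30.1% with the pseudocount, 31.9% with the trended prior, 17.4% in the whole RefSeq order, 19.1% without overlapping pairs and 21.6% to 23.7% with 1 array left out. The share of lower genes with a lower neighbour (21.9%) became 6.91%, 37.8% and 40% with all 10 arrays, the pseudocount and the trended prior, 18.8% in the whole RefSeq order, 17.8% without overlapping pairs and 8.99% to 13.9% with 1 array left out. The share of all genes with such a neighbour moved with the setting as well. For a higher neighbour it was 14.9% in the main fit, 6.86% with all 10 arrays and 20.6% with the trended prior. For a lower neighbour it was 11.3%, 3.11% and 23.5% in the same order. Over 16 settings and both directions, the share of called genes was 1.55 to 2.44 times that of all genes. The causes were not tested. Pairs of one symbol family left out, and pairs with both genes above the highest Tag value, were added after seeing the data. The planned comparison of neighbours by strand and by protein identity was not run. With 2 arrays a group, small changes near the threshold are the least firm, and levels near 3.27 have no measured size.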

Other observations

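Genes that rose in Kc cells had a median gland difference, H1 RNAi minus nau RNAi, of 0.13 on the log2 scale, those that fell one of -0.07, and all named genes one of -0.04. All 3 H1 gland arrays lay above all 3 nau gland arrays for 38.1% of the genes that rose in Kc cells, 30.0% of those that fell and 25.9% of all named genes. They lay below for 21.4%, 37.7% and 28.7% in the same order of groups. Taf12L, which left background in Kc cells, averaged 12.60 in H1 glands, against 5.02 in nau glands, and CG5111 averaged 4.89, against 2.96. By contrast ltl averaged 8.19 in H1 glands, against 8.92 in nau glands. Families with fewer calls held further ones in Kc cells, and those named here were chosen after their values were seen. The guidance genes sli (1.06) and Sema1a (0.73) and the Sox factor genes SoxN (1.65) and Sox14 (0.65) were higher. Of 8 sugar transporter genes Glut1 (1.24) was higher and sut1 (-0.43) lower. Of 11 scavenger receptor genes Sr-CII (1.14) was higher and Sr-CIV (-0.56) lower. The growth factor gene Idgf2 (-1.20) and the integrin gene Itgbn (-0.94) were lower.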
